A study of Mus musculus with 6 samples.

Results

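The genes described here carry glucose into the cell, break it down to pyruvate and lactate, and answer to low oxygen. They were chosen by name from a list of 37 genes, and 33 of them are represented on the array, out of 8252 genes on the array in all. The list was drawn up with earlier results of these data known. A probe set, the group of short probes that reads out a transcript, was assigned to a member by the gene symbol in the array's annotation, current or older. The annotation used here lists no probe set under Gpi1, Slc16a3, Eno1 or Car9, and Bnip3l is read out only by a probe set that is listed with its pseudogene as well.

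RNA was measured in mouse embryonic stem cells of 3 lines, taken while growing exponentially. The H1 triple-null cells lack the linker histone genes H1c, H1d and H1e and exist as line 1 and line 2, and wild-type cells carry all of these genes. Each line has 2 arrays, titled as experiment 1 and experiment 2, which gives 4 null arrays and 2 wild-type arrays. The labels name no strain, sex, passage or clone, and do not tell whether arrays of the same line stem from separate cultures. The p-values therefore reflect the scatter among these 6 arrays alone, which can be technical. The main comparison sets the null lines against the wild-type line for transcript levels in this pathway. With a single wild-type line, loss of the 3 linker histones cannot be told apart from other differences between the lines. A second comparison asks whether the null lines differ from each other.

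Glucose enters cells through carriers of the Slc2a family and is trapped by hexokinase. Phosphofructokinase then commits it to glycolysis, the lower enzymes turn it into pyruvate, and pyruvate is either reduced to lactate or passed to mitochondria by the pyruvate dehydrogenase complex, which the Pdk kinases switch off. At low oxygen the HIF transcription factors are no longer marked for destruction by prolyl hydroxylases such as Egln1, and they raise many of these same genes. Mouse embryonic stem cells are known for a high rate of glycolysis even where oxygen is present.

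HIF binds DNA at a short core, ACGTG or GCGTG, so the promoter windows of the members were searched for these letters. The windows run from 250 bases before to 50 bases after the annotated transcript start (RefSeq, GRCm38.p6), and 33 of the 37 genes have at least 1, with 46 windows in all. The windows of Pfkp, Pdk1, Slc2a1 and Ddit4 are shown as examples of the genes that the results below turn on. That of Ldha is shown because Ldha is a well known HIF target whose level was close between the lines. Capitals mark ACGTG or GCGTG on either strand, so that a core on the opposite strand reads as CACGT or CACGC. They lie at chr13:6648722-6649021 (Pfkp, minus strand), chr2:71872974-71873273 (Pdk1, plus strand, the upstream of 2 windows), chr4:119108495-119108794 (Slc2a1, plus strand), chr10:59951721-59952020 (Ddit4, minus strand) and chr7:46845554-46845853 (Ldha, plus strand, the upstream of 2 windows).
Pfkp: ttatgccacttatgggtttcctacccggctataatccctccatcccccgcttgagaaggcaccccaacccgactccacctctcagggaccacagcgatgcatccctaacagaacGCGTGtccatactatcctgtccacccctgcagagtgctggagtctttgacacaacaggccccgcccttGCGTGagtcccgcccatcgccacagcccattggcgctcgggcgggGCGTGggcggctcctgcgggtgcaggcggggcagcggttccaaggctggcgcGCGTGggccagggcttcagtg
Pdk1: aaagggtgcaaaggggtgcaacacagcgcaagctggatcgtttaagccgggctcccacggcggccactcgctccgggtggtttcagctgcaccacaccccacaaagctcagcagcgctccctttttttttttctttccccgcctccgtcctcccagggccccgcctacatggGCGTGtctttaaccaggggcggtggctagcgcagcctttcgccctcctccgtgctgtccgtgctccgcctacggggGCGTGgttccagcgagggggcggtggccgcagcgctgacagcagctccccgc
Slc2a1: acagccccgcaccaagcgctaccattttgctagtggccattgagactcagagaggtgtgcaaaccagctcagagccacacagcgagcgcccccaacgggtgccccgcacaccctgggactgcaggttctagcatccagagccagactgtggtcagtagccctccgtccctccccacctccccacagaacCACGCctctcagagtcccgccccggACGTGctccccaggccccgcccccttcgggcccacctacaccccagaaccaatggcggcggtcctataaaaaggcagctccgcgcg
Ddit4: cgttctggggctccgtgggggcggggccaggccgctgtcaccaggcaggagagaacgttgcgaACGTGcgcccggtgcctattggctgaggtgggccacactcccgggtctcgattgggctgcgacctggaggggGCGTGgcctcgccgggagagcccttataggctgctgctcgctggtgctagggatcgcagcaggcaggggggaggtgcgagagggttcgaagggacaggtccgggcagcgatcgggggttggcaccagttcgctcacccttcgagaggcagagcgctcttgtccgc
Ldha: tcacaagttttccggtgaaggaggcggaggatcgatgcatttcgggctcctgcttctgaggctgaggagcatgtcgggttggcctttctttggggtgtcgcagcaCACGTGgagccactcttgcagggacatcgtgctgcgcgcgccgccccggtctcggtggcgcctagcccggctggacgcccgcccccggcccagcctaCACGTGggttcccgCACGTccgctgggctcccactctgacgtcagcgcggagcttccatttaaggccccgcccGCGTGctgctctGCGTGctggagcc
The Pfkp window holds 4 GCGTG and 0 ACGTG, and the Pdk1 window shown holds 2 GCGTG, while the other Pdk1 window holds neither core. The Slc2a1 and Ddit4 windows hold 1 of each core. The Eno3 and Ldhb windows, not shown, hold 1 GCGTG each, and Slc2a3 has no window. The Ldha window holds 5 ACGTG and 2 GCGTG, and 2 of its sites are the palindrome CACGTG, which contains ACGTG on both strands and counts there for each.

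Of the 46 member windows, 24 (52.2%) hold ACGTG, against 19.6% of all 32851 windows in the same table. GCGTG is found in 60.9% of member windows, against 32.4% of all. Either core is found in 38 member windows (82.6%), against 43.8% of all, and CACGTG, the E-box core bound by MYC family factors among others, in 13% against 7.15%. The member windows are also richer in G and C, with a median of 62.2% against 52.7%, and the part of base composition in these shares was not tested. Some windows of a gene overlap. A match is a run of letters and says nothing of binding.

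Values are array intensities in linear units, and differences are given on the log2(value + 2) scale, as the mean of the null lines minus wild type. That scale understates the change of dim genes. The highest signal of the bacterial and yeast controls, between 9.1 and 17.2 on each array, served as background. Array medians lay between 34.1 and 39.5, and arrays correlated at 0.973 to 0.977 within a line and at 0.96 to 0.98 between lines. H1c (H1f2) measured 12.5 ± 1.51 in null cells (SD, n = 4) and 69.1 ± 1.27 in wild-type cells (SD, n = 2), a log2 difference of -2.30 (limma, adjusted p = 0.00119). Its probe set was above background on 4 of 6 arrays, both wild-type arrays among them, so the null level is partly a bound. The probe sets of H1d and H1e were at background on all 6 arrays and check nothing. The 8 embryonic stem cell markers (Pou5f1, Nanog, Sox2 and others) were above background on all arrays, with a summed intensity of 8024 to 8854 in null cells and 7751 to 7825 in wild-type cells.

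Across the pathway, most glycolytic enzymes differed little between null and wild-type cells, and the differences sat in a few genes. Pfkp, the platelet isoform of phosphofructokinase, rose 2.42-fold in null cells by the 1 of its 2 probe sets that passed. The glucose carriers Slc2a3 and Slc2a1 were lower in all null arrays, and Pdk1, Eno3 and Ldhb were higher in all null arrays, but none of these passed the test. Hif1a, Epas1, Arnt, Egln1, Bnip3, Ddit4, Ndrg1 and P4ha1, members of the hypoxia response itself, had differences below 0, none of which passed. Several of these were close to 0, and 3935 of all 7458 probe sets tested were below 0 as well. Of 19 further hypoxia targets tested, 9 had differences above 0.

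Of 42 member probe sets tested, 1 passed an adjusted p of 0.05 in the null average, a probe set of Pfkp, and it was higher. Among all 7458 probe sets tested, 0.416% passed in either direction and 0.282% passed as higher. An unadjusted p under 0.05 was found for 9 member probe sets (21.4%), 5 higher and 4 lower, against 12.7% of all probe sets. All 4 null arrays lay above both wild-type arrays for 7 member probe sets and below both for 9, against 11.0% and 12.0% of all probe sets. Counted together, the groups did not overlap for 38.1% of member probe sets and 23% of all. The members were chosen with earlier results of these data known, so these shares are no test of the pathway. Probe sets of a gene read the same transcript, so these counts are not of independent genes. By the brightest probe set of each, 31 genes were tested, with a median log2 difference of -0.03 (all probe sets, -0.01). None of the 31 passed in limma, while 4 had an unadjusted p under 0.05 as higher and 3 as lower, and 22 lay within 0.25 of 0.

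**Figure D1:**
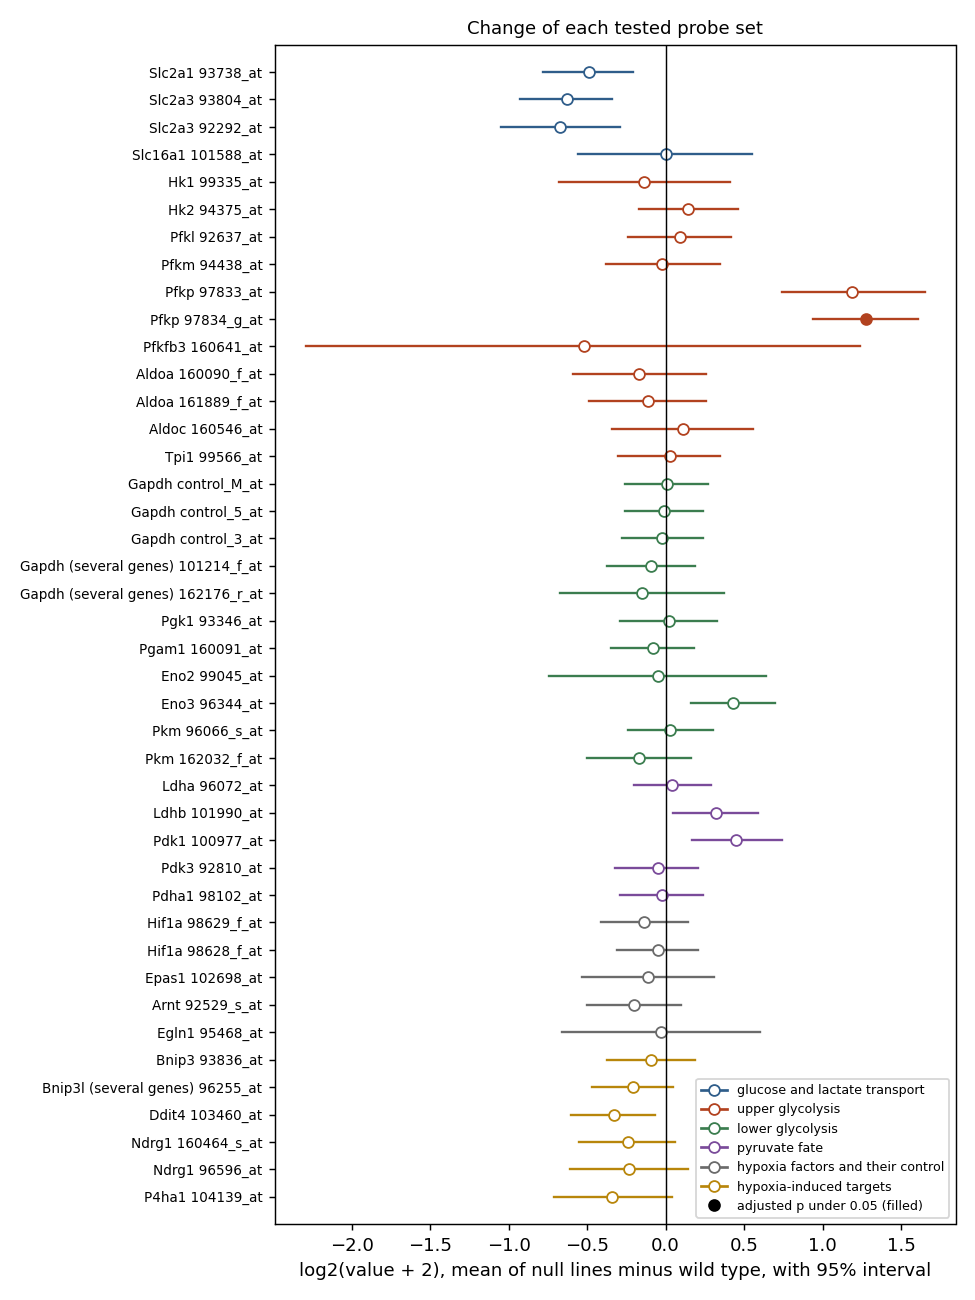
Log2 difference of each tested member probe set, the mean of the null lines minus wild type, as a point with its 95% interval (not adjusted for the number of genes), coloured by role in the pathway. A filled point passed an adjusted p of 0.05, and the 1 filled point is Pfkp at 1.28, while most glycolytic enzymes lie close to 0 and Slc2a3 and Slc2a1 lie at -0.67 to -0.49.

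The glucose carriers Slc2a3 and Slc2a1 were lower in both null lines, and neither passed the test. Slc2a3, which encodes the high-affinity glucose transporter Glut3, is read out by 2 probe sets. The first (93804_at) measured 2013.8 and 1858.1 in null line 1, 1781.3 and 2097.6 in null line 2, and 2920.5 and 3089.9 in wild-type cells. Every null array was below both wild-type arrays, and the arrays of the null lines overlapped each other. The log2 difference was -0.63 ± 0.12 (SE), 1.55-fold lower, with a 95% interval of -0.93 to -0.34 (limma, unadjusted p = 0.00179, adjusted p = 0.132).

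The other Slc2a3 probe set (92292_at) measured 952.6 and 731.4 in null line 1, 704.2 and 869.0 in null line 2, and 1309.2 and 1267.3 in wild-type cells. The order of the groups was the same and the difference was -0.67 ± 0.16 (95% interval -1.05 to -0.29, limma adjusted p = 0.187). Slc2a1, which encodes the basal glucose transporter Glut1, measured 745.7 and 824.3 in null line 1, 731.3 and 671.2 in null line 2, and 1099.0 and 992.6 in wild-type cells. Null and wild-type arrays again did not overlap, with a difference of -0.49 ± 0.12, 1.41-fold lower (95% interval -0.78 to -0.21, limma adjusted p = 0.19). With the variance prior allowed to follow intensity, these 3 probe sets passed as lower, with adjusted p of 0.0413 for Slc2a1 and of 0.013 and 0.0447 for the Slc2a3 probe sets in limma. Slc16a1, a carrier of lactate and pyruvate, averaged 62.4 ± 14.6 in null cells and 61.5 ± 4.81 in wild-type cells, a difference of 0.00 (95% interval -0.56 to 0.55).

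The summed markers of other cells that such cultures can hold were also lower in null arrays, though not every marker was. The summed signal of 12 feeder fibroblast markers was 2444 to 2762 in null arrays and 3184 to 3394 in wild-type arrays. Such a sum follows its brightest markers. Tagln averaged 1032 in null cells and 1319 in wild-type cells, Sparc 458 and 602, and Acta2 345 and 561. Of these 12 markers 6 were above background on all arrays. The log2 differences were -0.71 for Acta2, -0.39 for Sparc, -0.36 for Tagln and -0.25 for Fn1, against 0.01 for Col1a1 and 0.12 for Col1a2. No marker was listed at 0, but Postn, Thy1 and Lum were above background on only 1, 2 and 2 of 6 arrays. Thy1 averaged 14.9 in null cells and 6.25 in wild-type cells. The sum of 10 extraembryonic endoderm markers was 934 to 1016 in null arrays and 1202 to 1411 in wild-type arrays, with 8 of them above background on all arrays and Sparc common to both lists. The brightest endoderm markers are Sparc, given above, and Col4a1, at 232 in null cells and 376 in wild-type cells. Of the endoderm markers Col4a1 differed by -0.70, Dab2 by -0.37, Gata4 by -0.23 and Lama1 by -0.18. Sox7 differed by 0.09, Sox17 by 0.05 and Afp by 0.00. None of the feeder or endoderm markers tested passed in limma. The part of these cells in the Slc2a values was not tested, and in bulk RNA fewer cells of a type and less RNA per cell cannot be told apart.

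In upper glycolysis, Pfkp was the member that changed. The probe set that passed (97834_g_at) measured 80.2 and 64.5 in null line 1, 78.9 and 75.6 in null line 2, and 32.1 and 27.3 in wild-type cells. The lowest null array, at 64.5, was above the highest wild-type array, at 32.1, and the null lines overlapped. The mean was 74.8 ± 7.13 in null cells (SD, n = 4) and 29.7 ± 3.39 in wild-type cells (SD, n = 2). This is a log2 difference of 1.28 ± 0.14 (SE, 95% interval 0.94 to 1.61, limma adjusted p = 0.0344).

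The neighbouring Pfkp probe set (97833_at) measured 108.5 and 89.8 in null line 1, 90.4 and 109.8 in null line 2, and 35.0 and 50.8 in wild-type cells. It separated the groups in the same way, with a difference of 1.19 ± 0.19, 2.29-fold higher, and did not pass over all probe sets (95% interval 0.74 to 1.65, limma adjusted p = 0.0829). Both were designed on the same database sequence, so they are not independent readings. Within experiment 1 the null arrays exceeded wild type by 1.26 for 97834_g_at and 1.45 for 97833_at, and within experiment 2 by 1.29 and 0.94. Leaving out any of the 6 arrays ended the call of 97834_g_at, with adjusted p of 0.0857 to 0.314 in limma, while its log2 difference stayed between 1.17 and 1.39. Pfkp lies on chromosome 13, as do the 3 inactivated histone genes, and the part of this in the Pfkp values was not tested.

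The other phosphofructokinase isoforms had differences close to 0, with Pfkl, the liver isoform, at 0.09 (95% interval -0.24 to 0.42) and Pfkm, the muscle isoform, at -0.02 (-0.38 to 0.35). The hexokinases Hk1 and Hk2 had differences of -0.14 (-0.68 to 0.41) and 0.14 (-0.17 to 0.46). Hk1 ranged from 1734.6 to 3018.5 over the null arrays, and both extremes were in line 1. The aldolases, which split the sugar bisphosphate, differed by -0.17 and -0.11 for the 2 Aldoa probe sets and by 0.11 for Aldoc, and triosephosphate isomerase (Tpi1) by 0.03.

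Pfkfb3 encodes an enzyme that makes the activator of phosphofructokinase. Singled out after its values were seen, it measured 40.2 and 35.5 in null line 1, 58.9 and 6.1 in null line 2, and 41.9 and 39.6 in wild-type cells (160641_at). The second array of null line 2 was at background and the other 5 arrays were above it. The interval of its difference, -2.29 to 1.24, is the widest among the members. Without the first array of null line 2, the value of that line rests on the array at background alone. The other Pfkfb3 probe set, 103577_at, was at background on all arrays.

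**Figure D2:**
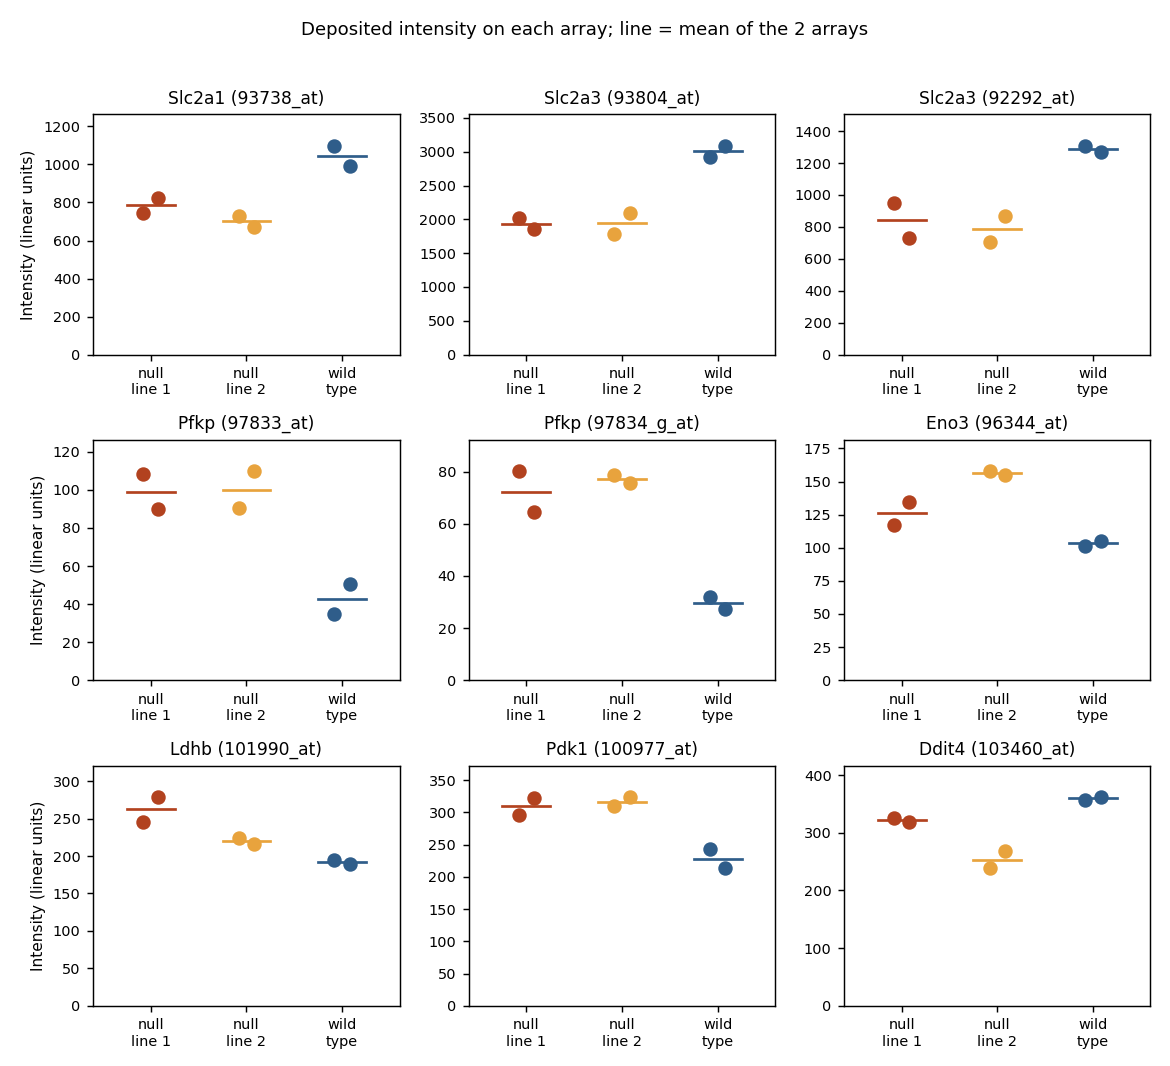
Deposited intensity (linear units, from 0) on each array for the member probe sets with an unadjusted p under 0.05, by line, with points for arrays and a bar for the mean of the 2 arrays of a line. Null arrays lie below both wild-type arrays for Slc2a1, Slc2a3 and Ddit4 and above both for Pfkp, Eno3, Ldhb and Pdk1, and of these only Pfkp 97834_g_at passed an adjusted p of 0.05.

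In lower glycolysis most enzymes hardly differed between null and wild-type cells. Glyceraldehyde phosphate dehydrogenase (Gapdh) averaged 5112 ± 326 in null cells and 5092 ± 329 in wild-type cells by its middle control probe set, a difference of 0.01 (95% interval -0.26 to 0.27). Its probe sets at the transcript's 5′ and 3′ ends differed by -0.01 and -0.02. The log2 ratio of 3′ to 5′ Gapdh signal, a sign of RNA integrity, was -0.26 to -0.16 in null arrays and -0.25 to -0.13 in wild-type arrays. Phosphoglycerate kinase (Pgk1) differed by 0.02 (-0.29 to 0.33), phosphoglycerate mutase (Pgam1) by -0.08 (-0.35 to 0.18) and the neuronal enolase Eno2 by -0.05 (-0.74 to 0.64).

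Eno3, the enolase of muscle, had a larger difference. It measured 117.4 and 134.4 in null line 1, 157.8 and 154.8 in null line 2, and 101.5 and 105.4 in wild-type cells. All null arrays were above wild type, those of line 2 the highest, and the difference of 0.43 ± 0.11 did not pass (95% interval 0.16 to 0.70, limma adjusted p = 0.219). Of 4 skeletal muscle markers (Acta1, Mylpf, Ckm, Myog), 3 were tested, and none passed in limma. Acta1 differed by -0.10, Mylpf by -0.03 and Ckm by -0.59. The Ckm value includes 1 null array at background, at 5.4. The summed signal of the 4 markers overlapped, at 373 to 459 in null arrays and 442 to 485 in wild-type arrays. The part of muscle-like cells in the Eno3 values was not tested. Pyruvate kinase (Pkm) is read out by 2 probe sets, of which 96066_s_at was at 0.03 (-0.24 to 0.30) and 162032_f_at at -0.17 (-0.50 to 0.16).

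At the branch after pyruvate, the kinase that closes the mitochondrial route and a lactate dehydrogenase subunit were higher in null arrays. Pdk1 measured 296.5 and 321.9 in null line 1, 309.5 and 324.0 in null line 2, and 243.8 and 213.0 in wild-type cells. The groups did not overlap, and the difference of 0.45 ± 0.12, 1.37-fold higher, did not pass (95% interval 0.17 to 0.74, limma adjusted p = 0.214).

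Ldhb, the lactate dehydrogenase subunit typical of heart, measured 245.3 and 279.0 in null line 1, 223.5 and 216.4 in null line 2, and 195.3 and 189.0 in wild-type cells (101990_at). Line 1 was the highest and wild type the lowest, with a difference of 0.32 ± 0.11 (95% interval 0.05 to 0.59, limma adjusted p = 0.326). Its other probe set, 161945_at, was at background on all arrays. Ldha, the subunit that favours lactate, averaged 2642 ± 52.3 in null cells and 2564 ± 17.5 in wild-type cells. The 4 null arrays lay above both wild-type arrays, yet the difference was only 0.04 (-0.20 to 0.29, limma adjusted p = 0.899).

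Of the remaining pyruvate genes, the kinase Pdk3 differed by -0.05 (-0.32 to 0.21) and Pdha1, the catalytic alpha subunit of pyruvate dehydrogenase, by -0.02 (-0.29 to 0.24). The average of Pdha1 hides a split between the null lines that is given below. Pgk1, Pdk3 and Pdha1 are on the X chromosome. On the Y chromosome, Eif2s3y measured 61.8 ± 14 in null cells and 10.2 ± 1.77 in wild-type cells (limma adjusted p = 0.00218), and its part in the X-linked values was not tested.

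The hypoxia factors among the members, and Egln1, differed by no more than 0.20 in size. Hif1a, the oxygen-regulated subunit, averaged 942 ± 54.2 in null cells and 1034 ± 12.2 in wild-type cells by 98629_f_at, a difference of -0.14 (95% interval -0.41 to 0.14), and its second probe set differed by -0.05. Its partner Arnt differed by -0.20 (-0.50 to 0.10), the related subunit Epas1 by -0.11 (-0.53 to 0.31) and the hydroxylase Egln1 by -0.03 (-0.66 to 0.60). All 4 genes had negative values, with a median of -0.12 by their brightest probe sets, and so had 3935 of all 7458 probe sets. HIF is controlled mostly at the level of protein stability, which an array does not read.

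Beyond the glycolytic genes that HIF also induces, such as Pdk1 and Ldha above, the hypoxia-induced members tested had differences below 0, and none passed. Ddit4, an inhibitor of mTOR signalling that low oxygen and other stresses induce, measured 325.5 and 318.0 in null line 1, 238.8 and 267.7 in null line 2, and 357.3 and 362.4 in wild-type cells. All null arrays were below wild type and those of line 2 were the lowest. The difference was -0.33 ± 0.11 (95% interval -0.60 to -0.07, limma adjusted p = 0.3).

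The prolyl hydroxylase of collagen P4ha1 averaged 33 ± 4.25 in null cells and 42.1 ± 4.1 in wild-type cells, a difference of -0.34 (-0.71 to 0.04). The 2 probe sets of Ndrg1, a stress-responsive gene, differed by -0.24 and -0.23, and Bnip3, which marks mitochondria for removal, by -0.09 (-0.37 to 0.19). Probe set 96255_at, listed with Bnip3l and its pseudogene, differed by -0.21 (-0.47 to 0.05). The median of the 4 genes tested with probe sets of their own was -0.29 (all probe sets, -0.01). Adm, which encodes the vasodilator adrenomedullin, was above background on 1 of 6 arrays and was not tested.

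Set against wild type by line, no member passed in either null line. In null line 1, 4 member probe sets were higher and 3 lower at an unadjusted p under 0.05 in limma (16.7%, against 9.49% of all probe sets). In null line 2, 4 were higher and 6 lower (23.8%, against 14.1% of all). The shares of all probe sets passing an adjusted p of 0.05 were 0.134% for line 1 and 0.255% for line 2. For Pfkp 97834_g_at the difference from wild type was 1.23 in line 1 (adjusted p = 0.0774) and 1.33 in line 2 (adjusted p = 0.0506). For Slc2a3 93804_at it was -0.63 in line 1 and -0.64 in line 2, and for Slc2a1 -0.41 and -0.57. For Pdk1 it was 0.44 in line 1 and 0.47 in line 2. Both comparisons share the wild-type arrays, so the likeness of the values is not independent support.

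The direct comparison of the null lines, in which wild type cancels, found no member past an adjusted p of 0.05 in limma, and 0.0268% of all probe sets passed. An unadjusted p under 0.05 was found for 4 of the 42 member probe sets (9.52%), against 7.56% of all. Pdha1, singled out after its values were seen, measured 889.4 and 991.6 in null line 1, 705.1 and 704.7 in null line 2, and 811.7 and 843.4 in wild-type cells. The arrays of line 1 were above both wild-type arrays and those of line 2 below both, and line 1 exceeded line 2 by 0.41 ± 0.13 (95% interval 0.11 to 0.72, adjusted p = 0.626). Ddit4 was higher in line 1 by 0.35 (0.04 to 0.65) and Pkm 162032_f_at by 0.49 (0.11 to 0.87), while Pkm 96066_s_at was at -0.13 (-0.44 to 0.18). Probe set 162176_r_at, listed with Gapdh and its pseudogene Gapdh-ps15, was at -0.75 (-1.35 to -0.15), and the Gapdh control probe sets at -0.15 to -0.05. For Pfkp 97834_g_at the lines differed by -0.10 (-0.49 to 0.29).

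**Figure D3:**
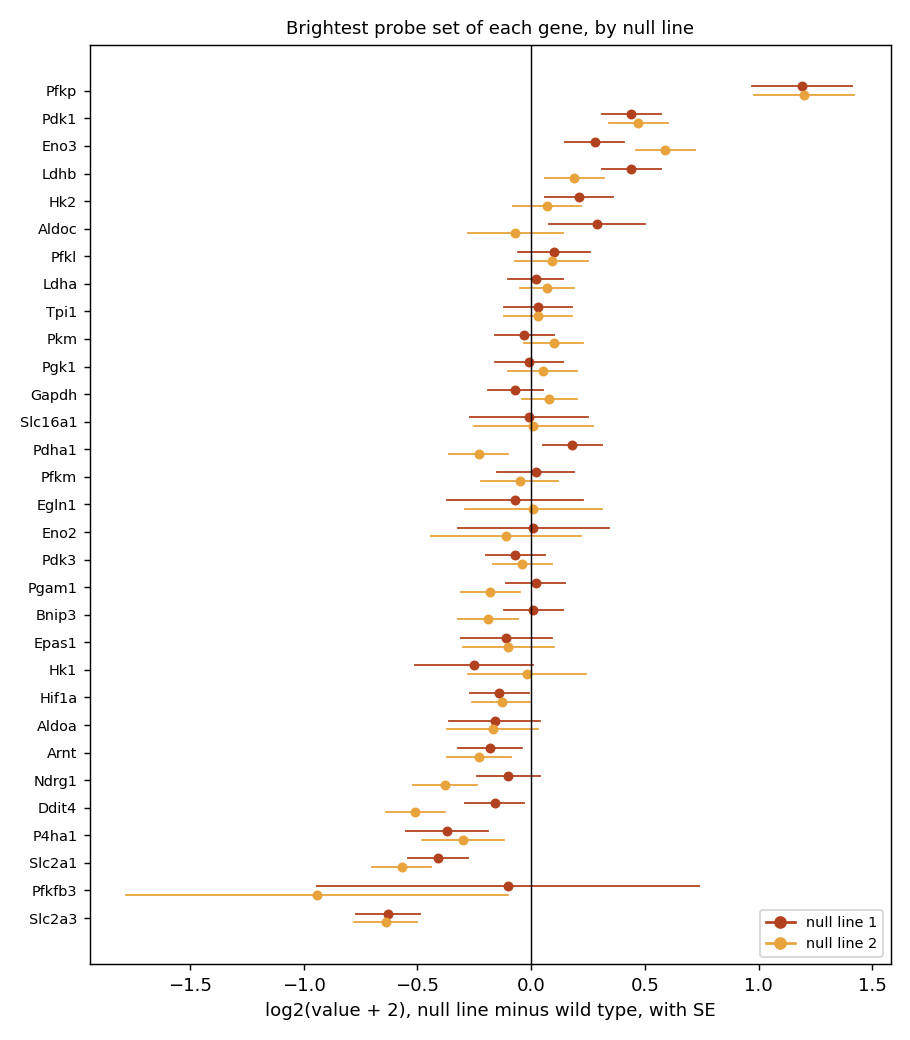
Log2 difference from wild type of each member gene by its brightest probe set, with a point and SE for null line 1 and for null line 2, sorted by the mean of the null lines. Both lines have Pfkp at the top (1.19 and 1.20 for 97833_at) and Slc2a3 and Slc2a1 near the bottom. They lie apart for Pfkfb3, whose line 2 arrays measured 58.9 and 6.1, the latter at background.

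The neighbouring pathways, taken as 9 further lists, held no gene that passed by its brightest probe set in the null average. At an unadjusted p under 0.05 in limma, 5 of 85 gene entries were higher and 4 lower (10.6%), which is under the 12.7% of all probe sets. The tricarboxylic acid cycle, which burns the products of pyruvate, had 12 of 16 tested genes with positive values (all probe sets, 47.2%) and a median of 0.13. Null arrays were above both wild-type arrays for 6 genes and below for 1, against 11.0% and 12.0% of all probe sets. Suclg2, a subunit of succinyl-CoA ligase, averaged 364 ± 10.7 in null cells and 297 ± 1.13 in wild-type cells, a difference of 0.29 (limma adjusted p = 0.326). Idh3g, a subunit of mitochondrial isocitrate dehydrogenase, differed by 0.33, and Me1, the cytosolic malic enzyme, by -0.51 (adjusted p = 0.349 and 0.23).

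The other pyruvate dehydrogenase genes had a median of 0.15 over 5 genes. Pdhb, the beta subunit, averaged 692 ± 63.3 in null cells and 540 ± 43.3 in wild-type cells, a difference of 0.35 (limma adjusted p = 0.306). In the pentose phosphate list, 6 of 8 tested genes were positive with a median of 0.04, and Prps1, which makes the ribose precursor of nucleotides, differed by 0.38 (adjusted p = 0.278). The remaining glycolysis genes (7 tested) and the gluconeogenesis and glycogen genes (9 tested) had medians of 0.03 and 0.06. Among the remaining glycolysis genes Galm, a sugar mutarotase, had 4 probe sets that disagree in size, at 0.69, 0.19, 0.13 and 0.05. Only 2 further glucose transport genes were tested, Slc2a8 at 0.15 and Txnip, which lowers glucose uptake, at 0.02.

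Among 19 further hypoxia targets tested the median was -0.03, and 9 of the 19 had positive values. Null arrays were below both wild-type arrays for 3 genes and above for 0, against 12.0% and 11.0% of all probe sets. Anxa2, a membrane-binding annexin, averaged 413 ± 34.1 in null cells and 564 ± 49.4 in wild-type cells, a difference of -0.45 (limma adjusted p = 0.195), and the repressor Bhlhe40 differed by -0.39 (adjusted p = 0.302). Endothelin (Edn1) differed by -0.79 by its dimmer probe set (adjusted p = 0.0671) and by 0.05 by its brighter. In the other direction, Tfrc differed by 0.36 by its dimmer probe set (limma adjusted p = 0.343) and by -0.03 by its brighter. Null and wild-type arrays overlapped for both Tfrc probe sets. Of 9 further HIF regulators tested, with a median of 0.04, Cited2, a competitor for the HIF coactivator, differed by -0.32 (adjusted p = 0.326). Among 10 regulators upstream of glycolysis, with a median of 0.05, Mycn averaged 413 ± 32.5 in null cells and 290 ± 25.7 in wild-type cells, a difference of 0.50 (adjusted p = 0.214).

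**Figure D4:**
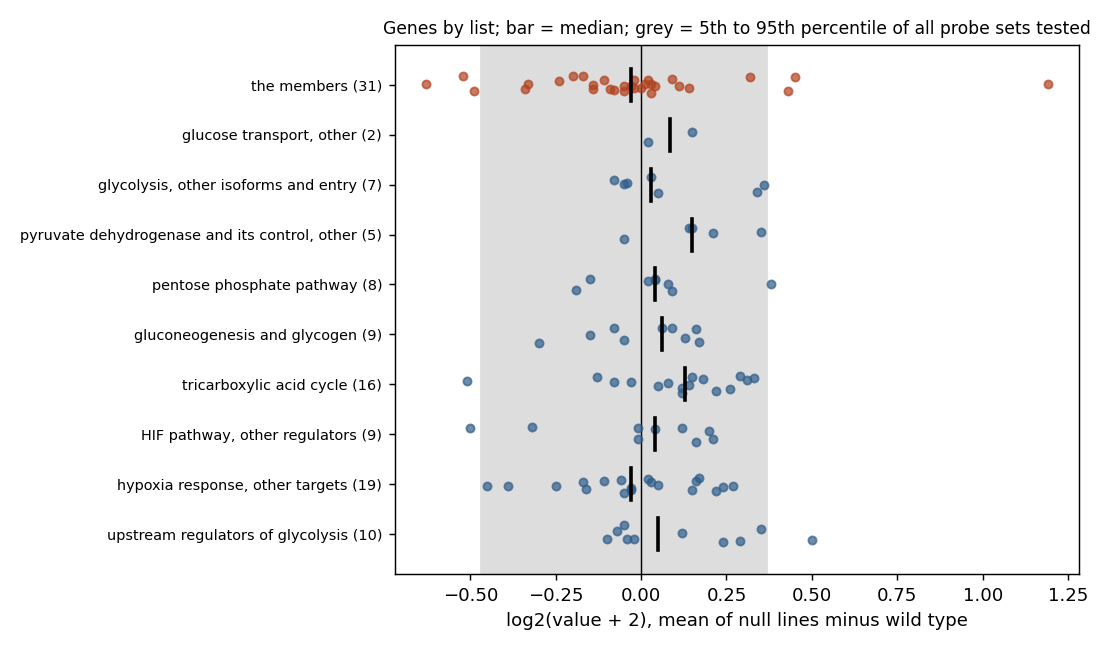
Log2 difference of the null average minus wild type for the genes described here and for the 9 further lists, with a point per gene (brightest probe set) and a bar at each list's median. The grey band holds the 5th to 95th percentile of all 7458 probe sets tested (-0.47 to 0.37), and the list medians lie between -0.03 and 0.15.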

How the data were processed

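The authors deposited 1 linear intensity per probe set and array, computed with MAS5 (version not stated) per the submitters' processing notes. The trimmed mean of every array was 100.1, so the arrays had been scaled to a common level, which was kept. Scaling of this kind hides a change that all genes share. Detection calls were not used, and the number of arrays limits the precision.

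Of 12488 probe sets, 10855 carry 1 gene symbol, 396 carry several and 1237 carry none. A current mouse gene table (GRCm38.p6) gave updated symbols for 10839 of the first. The 66 control probe sets were left out, except those of Gapdh. The members have 47 probe sets on the coding strand: 5 listed with 1 gene fell below the filter, 4 of them at background on all arrays. Probe sets with a mean of at least 20.9, the 40th percentile, were tested (7458) as log2(value + 2) with limma 3.58.1 in R 4.3.3, with a mean per line over all 6 arrays and 3 residual and 3.16 prior degrees of freedom. Adjusted p-values are Benjamini-Hochberg values over all 7458, with a threshold of 0.05. There were 4 contrasts: the null average against wild type, either null line against wild type, and the null lines against each other (1 minus 2). There are 15 ways to pick 2 of 6 arrays, so an exact one-sided permutation test could not go below 0.0667, and each p rests on the model. On simulated data for the null average with 7458 probe sets the test recovered 69.3% of 2-fold and 97.3% of 4-fold changes, with 1.4% of calls false. Each of 10 runs changed 200 probe sets, and spreads were shuffled among probe sets anew for every array. A simulated probe set thus kept no spread of its own across arrays, so these shares need not hold for the real arrays. The real null average gave 31 calls.

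Array values are printed for genes with a member probe set that passed in any contrast, had an unadjusted p under 0.05 in the null average, or under 0.01 in another contrast, and for Pdha1 and Pfkfb3, singled out after their values were seen. Of each further list, up to 4 genes with the smallest unadjusted p could be named. The members and lists were chosen with earlier results of these data known. The alternatives were quantile normalization, another pseudocount, no filter, an intensity trend, the null arrays as 1 group, a replicate block and leaving out each array. Plots were made in Python 3.11.15 (matplotlib 3.10.9).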

Additional observations from a re-analysis of the deposited data

Results flagged for a closer look

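Pdha1 lay on opposite sides of wild type in the null lines: both arrays of line 1 lay above both wild-type arrays and both arrays of line 2 below them. The difference from wild type was 0.18 in line 1 and -0.23 in line 2 on the log2 scale. Line 1 minus line 2 was 0.41, with an unadjusted p of 0.0159 and an adjusted p of 0.626 in limma, so it did not pass. Of all 7458 probe sets tested, 205 (2.75%) showed the lines on opposite sides of wild type in this way.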

How the results depend on the processing

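In the null average 1 member probe set passed, and under the alternatives the number was 5 with an intensity trend (both of Pfkp higher, that of Slc2a1 and both of Slc2a3 lower), 2 with the null arrays as 1 group or a pseudocount of 16 (both of Pfkp), 1 with quantile normalization and 0 without the filter on dim probe sets, which tests more probe sets. Leaving out each array in turn gave 0 to 0. In line 1, where 0 passed, an intensity trend gave 2. In line 2, where 0 passed, an intensity trend gave 4, a pseudocount of 16 gave 1, and leaving out each array gave 0 to 1. Between the lines 0 passed under every alternative run. Over all probe sets 31 passed in the null average, against 101 with an intensity trend, 54 with a pseudocount of 16, 8 without the filter and 7 to 13 on leaving out each array. Pfkp 97834_g_at passed in 5 of 12 alternatives, with adjusted p of 0.00984 to 0.314 and log2 differences of 0.99 to 1.39; without the filter its adjusted p was 0.192. Eno3, Ldhb, Pdk1 and Ddit4 passed in none of the 12, and no direction reversed for these genes, Pfkp, Slc2a1 or Slc2a3; other members were not followed singly. With the replicate (experiment) number as a block, 1 member passed in the null average, and 14 of all probe sets in place of 31. The titles do not say what an experiment's arrays share, and arrays of the same number deviated together only weakly (correlations of 0.0731, 0.053 and 0.0949), under the 0.1 required here to treat them as pairs. Where leaving out an array left a line with 1, that array was assumed to vary like the others. Apart from the statements made here the causes of these shifts were not tested. Signal over background limits the dim members: Adm and 4 further probe sets gave no test.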
